A study of Mus musculus with 2 samples.

Results

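Gata6 and 7 further genes that mark the large macrophages of the mouse peritoneal cavity were followed on a pair of arrays, 1 of thioglycollate-elicited and 1 of resident peritoneal macrophages. The members were Gata6, Rarb, Prg4, Aspa, Adgb, Icam2, Bhlhe40 and Bhlhe41, 8 of the 18193 genes named on the array. They were chosen by name, with earlier results of these arrays known. All 11 probe sets that the platform annotation assigns to 1 of these genes alone were taken. No probe set named a member together with other genes. The elicited cells came from C57BL/6J mice aged 8 weeks that had received 1 mL of 3% thioglycollate, a sterile irritant, in the peritoneal cavity 3 days before collection. The resident cells came from untreated C57BL/6J mice of the same age. Both were enriched by adherence to plastic for 2 h (the series text instead speaks of overnight culture), with no sort, so that other adherent or trapped cells could contribute RNA. The sources used here do not give the number of mice behind each array. With 1 array per group, no value below carries a replicate error, no difference was tested, and each ratio compares these arrays rather than the conditions.

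Large peritoneal macrophages are the long-lived resident phagocytes of the serous cavity. Their identity depends on the zinc finger transcription factor GATA6, which the vitamin A metabolite retinoic acid, made by stromal cells of the cavity wall and omentum, helps to induce and maintain through retinoic acid receptors. After an irritant, these cells clot, adhere or leave the lavage fluid, and monocytes enter and become macrophages that at first lack this program. In a bulk sample, fewer cells of a type and less RNA per cell cannot be told apart.

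The promoters are shown because they carry, or lack, the DNA letters read by the regulators among the members (retinoic acid receptors, GATA factors and E-box repressors). The promoter of Gata6 is not reported here, by a rule on its chromosome, and those of Prg4, Icam2 and Bhlhe40 were not available. RefSeq sequences of build GRCm38.p6, from 250 bases before to 50 bases after the gene start, are shown for the other 4 of the 8 members. They are given 5′ to 3′ on the strand of the gene, which is the minus strand in all 4, and capitals mark the direct repeat, GATA motif and E-box described below, found on either strand.
Rarb: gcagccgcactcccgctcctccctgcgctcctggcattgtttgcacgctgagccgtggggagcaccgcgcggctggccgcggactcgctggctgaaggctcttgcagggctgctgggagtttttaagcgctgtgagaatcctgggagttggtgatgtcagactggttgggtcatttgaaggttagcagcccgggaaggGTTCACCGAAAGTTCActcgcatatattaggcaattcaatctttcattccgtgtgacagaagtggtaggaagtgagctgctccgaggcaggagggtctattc
Adgb: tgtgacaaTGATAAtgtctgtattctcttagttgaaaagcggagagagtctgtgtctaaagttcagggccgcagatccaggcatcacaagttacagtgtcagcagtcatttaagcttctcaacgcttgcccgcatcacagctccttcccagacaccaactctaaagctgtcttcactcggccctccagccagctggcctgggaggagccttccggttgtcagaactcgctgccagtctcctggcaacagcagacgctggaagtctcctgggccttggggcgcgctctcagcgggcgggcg
Aspa: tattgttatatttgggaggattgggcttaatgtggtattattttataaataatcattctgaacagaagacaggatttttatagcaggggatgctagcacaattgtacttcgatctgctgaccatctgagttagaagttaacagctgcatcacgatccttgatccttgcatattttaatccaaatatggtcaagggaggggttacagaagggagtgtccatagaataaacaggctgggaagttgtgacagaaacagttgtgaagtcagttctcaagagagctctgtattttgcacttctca
Bhlhe41: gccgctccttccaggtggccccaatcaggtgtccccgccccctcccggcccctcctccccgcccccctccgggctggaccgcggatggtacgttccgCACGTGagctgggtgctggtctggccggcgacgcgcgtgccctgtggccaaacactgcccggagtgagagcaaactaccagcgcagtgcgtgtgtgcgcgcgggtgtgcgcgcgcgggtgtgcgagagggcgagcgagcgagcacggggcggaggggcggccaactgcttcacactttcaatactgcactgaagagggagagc
These windows lie at chr14:16575427-16575726 for Rarb, chr10:10472350-10472649 for Adgb, chr11:73324588-73324887 for Aspa and chr6:145865371-145865670 for Bhlhe41. The capitals in Rarb, beginning 52 bases before the start, are the direct repeat through which this receptor gene is known to be induced by retinoic acid. Searched as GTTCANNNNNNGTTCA, a pattern written after the Rarb sequence had been read, it was held by 25 of 32851 promoters (0.0761%), and Adgb, Aspa and Bhlhe41 did not have it. The capitals in Adgb are a GATA motif (AGATAA or TGATAA) 242 bases before the start, which 18.6% of all promoters hold. The capitals in Bhlhe41 are the E-box CACGTG, the element that the proteins of Bhlhe40 and Bhlhe41 bind, 153 bases before the start, and 7.15% of promoters hold one. The nuclear receptor element AGGTCA, found in 16.3% of promoters, was absent from all 4 windows, and Aspa had none of these elements. The short element GTTCA, which makes up the repeat and is held by 35.2% of promoters, occurred once each in Aspa and Adgb and is left in lower case there. A match describes these letters and does not show that a factor binds there.

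Values are linear MAS5 signal intensities as deposited, and a signal of 82.2 was taken as the floor. It is the 95th percentile over both arrays of 126 probe sets of families taken as silent in macrophages (keratin-associated proteins and receptors for smell, pheromones and bitter taste). A signal below the floor was raised to it, and a ratio against such a signal is a bound. A bound short of 2-fold was counted as within 2-fold, although the difference behind it can be larger. Of the 9261 genes within 2-fold, 1284 were such bounds. On the elicited array 46.1% of probe sets passed the floor, against 51.9% on the resident array, and computed per array the floor would be 67.9 for elicited and 92.7 for resident cells. The floor was passed by 6 members in elicited and by all 8 in resident cells.

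Gata6 RNA was lower on the elicited array in each of its 3 probe sets. The brightest probe set, 1425464_at, had a signal of 411 on the elicited and 1822 on the resident array, a 4.44-fold lower signal (log2 ratio -2.15). The second, 1425463_at, had 219 on the elicited and 1114 on the resident array (5.09-fold lower). These probe sets were designed on the same transcript sequence and so are not independent readings. The third, 1443081_at, was dim, with 4.07 on the elicited and 103 on the resident array, which against the floor gives a signal at least 1.26-fold lower. Gata6 was still 5.00 times the floor on the elicited array, so its RNA remained measurable there. Of the 11560 genes above the floor on at least 1 array, 259 (2.24%) had a lower ratio than Gata6.

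Rarb encodes retinoic acid receptor beta, which is both a receptor for the inducer of Gata6 and, through the repeat shown in its promoter, a retinoic acid target itself. Its single probe set had a signal of 131 on the elicited and 174 on the resident array, 1.32-fold lower (log2 ratio -0.40). Both signals were close to the floor, at 1.60 times on the elicited and 2.11 times on the resident array. The direction turned with quantile normalization (log2 ratio 0.16), so no difference in Rarb was detectable on these arrays.

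**Figure D1:**
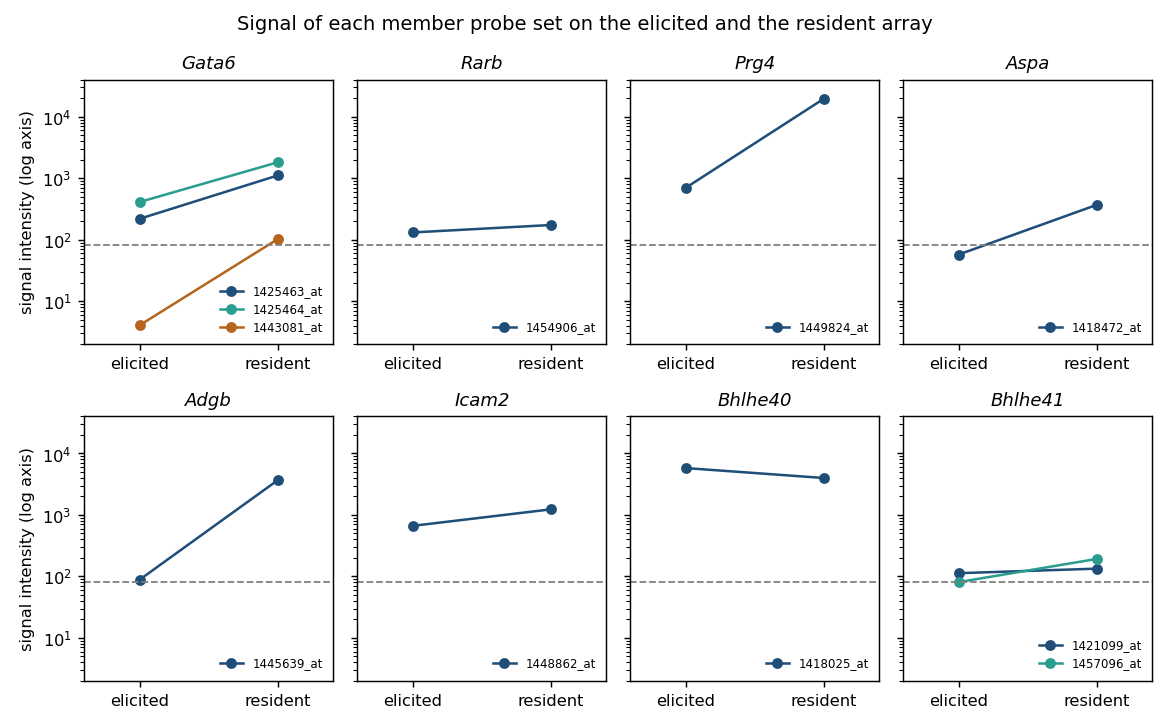
Signal intensity (log axis) of the 11 member probe sets on the elicited (left) and resident (right) array, 1 line per probe set, with the floor of 82.2 dashed. Prg4 and Adgb have the steepest lines, the 3 probe sets of Gata6 all slope the same way, and Bhlhe40 is the member whose elicited signal (5787) is above its resident signal (3986).

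Prg4 and Adgb had the lowest ratios among the members. Prg4 encodes lubricin, a mucin-like proteoglycan that coats joint and serosal surfaces, and is a marker of large peritoneal macrophages in mice. Its signal was 697 on the elicited and 19740.4 on the resident array, a 28.3-fold lower signal (log2 ratio -4.82). Prg4 was 8.49 times the floor on the elicited array, so both ends of this ratio were measured, and 20 of 11560 genes had a lower ratio.

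Adgb encodes androglobin, a large globin-domain protein best known from testis and ciliated cells. Its signal was 88.5 on the elicited and 3702 on the resident array, 41.8-fold lower (log2 ratio -5.39). The elicited signal exceeded the shared floor by a factor of 1.08 and lay below the 92.7 computed for the resident array. Against that higher floor, the ratio is a bound of at least 39.95-fold, and it was at least 21.2-fold with the floor at the 99th percentile (174). With the shared floor, 9 of 11560 genes had a lower ratio. Adgb was read by 1 probe set, designed on an expressed sequence tag.

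Aspa encodes aspartoacylase, which splits N-acetylaspartate into aspartate and acetate and is another marker of these cells. Its signal was 57.4 (below the floor) in elicited and 371 in resident cells, at least 4.51-fold lower. Raising the floor to the 99th percentile lowered the bound to 2.13-fold.

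Icam2 encodes an adhesion molecule, CD102, that is used to sort large from small peritoneal macrophages and is also carried by endothelial cells and lymphocytes. Its signal was 664 on the elicited and 1234 on the resident array, 1.86-fold lower (log2 ratio -0.89). This was short of the 2-fold threshold as deposited, and past it (2.34-fold lower) when the arrays were scaled on the spiked hybridisation controls. On both arrays Icam2 was well above the floor, at 8.09 times on the elicited and 15.0 times on the resident array.

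The paralogues Bhlhe40 and Bhlhe41 encode E-box-binding repressors (DEC1 and DEC2) of the circadian system, and in mouse macrophages they are known for supporting proliferation and identity of resident cells. Bhlhe40 had a signal of 5787 on the elicited and 3986 on the resident array, 1.45-fold higher (log2 ratio 0.54). It was the member with the opposite sign, and it stayed within 2-fold under each of the 11 alternatives tried (0.20 to 0.85). Bhlhe41 was read by 2 dim probe sets that disagreed in size. Probe set 1457096_at had 80.9, just below the floor, on the elicited and 193 on the resident array, at least 2.35-fold lower. Probe set 1421099_at had 113 on the elicited and 134 on the resident array, 1.19-fold lower. The median over both probe sets was 1.67-fold lower (log2 ratio -0.74), and Bhlhe41 passed 2-fold in 4 of the 10 alternatives that measured it. As deposited, 1457096_at represents Bhlhe41 in the counts by a small margin in mean signal. The direction turned with quantile normalization (0.31), but there Bhlhe41 was read from 1421099_at instead.

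Counted by gene, 5 of 8 members (Gata6, Prg4, Aspa, Adgb and Bhlhe41) had elicited signals lower by 2-fold or more, as had 11.8% of all genes above the floor. The other 3 (Rarb, Icam2 and Bhlhe40) were within 2-fold, and no member was higher by 2-fold or more, which 8.04% of all genes were. The median log2 ratio of the members was -1.69, and that of all 11560 genes was -0.03. The 5 lower members include Aspa and Bhlhe41, whose elicited signal was below the floor, and the call of Bhlhe41 was lost in 6 of 10 alternatives. Requiring a signal above the floor on both arrays left 6 members, of which 3 passed 2-fold downwards and 0 upwards, against 11.1% and 7.55% of the 9803 genes so filtered. The only spread measurable here, between probe sets of 1 gene, had an SD of 0.48 on the log2 scale (4465 genes). The ratios of Rarb and Bhlhe40 lay near this value and those of Gata6, Prg4 and Adgb several times beyond it. It holds no difference between animals or cultures. Members were proposed as markers of resident cells with results of these arrays known, so their shared direction is a description.

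**Figure D2:**
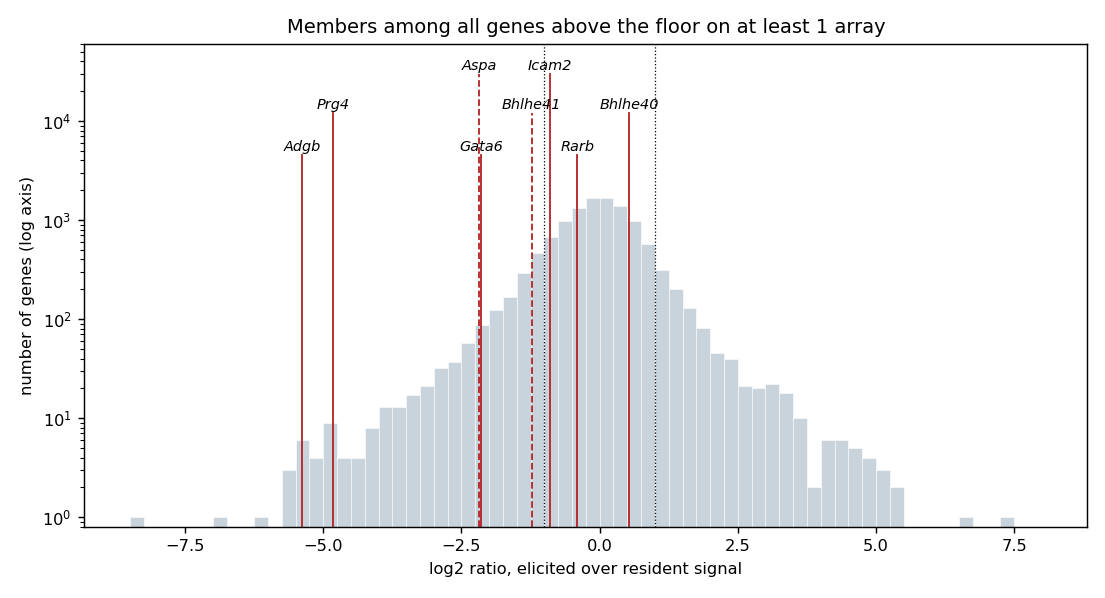
Histogram of log2 ratios (elicited over resident) of 11560 genes above the floor on at least 1 array, with the number of genes on a log axis and dotted lines at 2-fold. Red lines mark the 8 members (dashed for the bounds of Aspa and Bhlhe41), with Adgb (-5.39) and Prg4 (-4.82) in the far left tail and Rarb (-0.40) and Bhlhe40 (0.54) in the main body.

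Most other genes of the large peritoneal macrophage also had lower signals in elicited cells. Of 19 measured genes on this list, 17 passed 2-fold downwards, 1 passed it upwards and 1 stayed within it (median log2 ratio -3.45). For all 11560 genes the shares were 11.8% downwards and 8.04% upwards. The floor was passed by 11 of them in elicited and by all 19 in resident cells. The lipoxygenase gene Alox15 had 57.2 on the elicited and 25979 on the resident array (at least 316-fold lower). Timd4, which encodes a receptor for apoptotic cells, was at least 118-fold lower, and F5, coagulation factor V, at least 44.5-fold lower. Among genes that GATA6 is known to control in mouse peritoneal macrophages, the TGF-beta ligand gene Tgfb2 had 131 on the elicited and 4169 on the resident array, a 31.9-fold lower signal. The gene of its latency partner, Ltbp1, had 126 on the elicited and 5267 on the resident array, 41.7-fold lower, although the log2 ratios of Ltbp1 spread from -5.38 to -0.78 over 3 probe sets.

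Further lower genes on this list were Marco (37.9-fold), Cxcl13 (35.9-fold), Nt5e (at least 35.2-fold), Serpinb2 (30.5-fold), Thbs1 (11.0-fold) and Icosl (at least 10.2-fold). Smaller differences were seen in Wnt2 (at least 6.38-fold lower), Vsig4 (4.92-fold), F10 (3.94-fold), Selp (3.62-fold), Itga6 (3.11-fold) and Bcam (at least 2.78-fold). Selp and Itga6 encode P-selectin and integrin alpha 6, surface proteins of these cells. Garnl3 was within the threshold at its bound (log2 ratio -0.93). Cd5l, a secreted scavenger protein of resident macrophages, was the exception, with 10576 on the elicited and 1897 on the resident array (5.58-fold higher). This list was drawn up with results of these arrays known, so its direction adds no independent evidence.

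**Figure D3:**
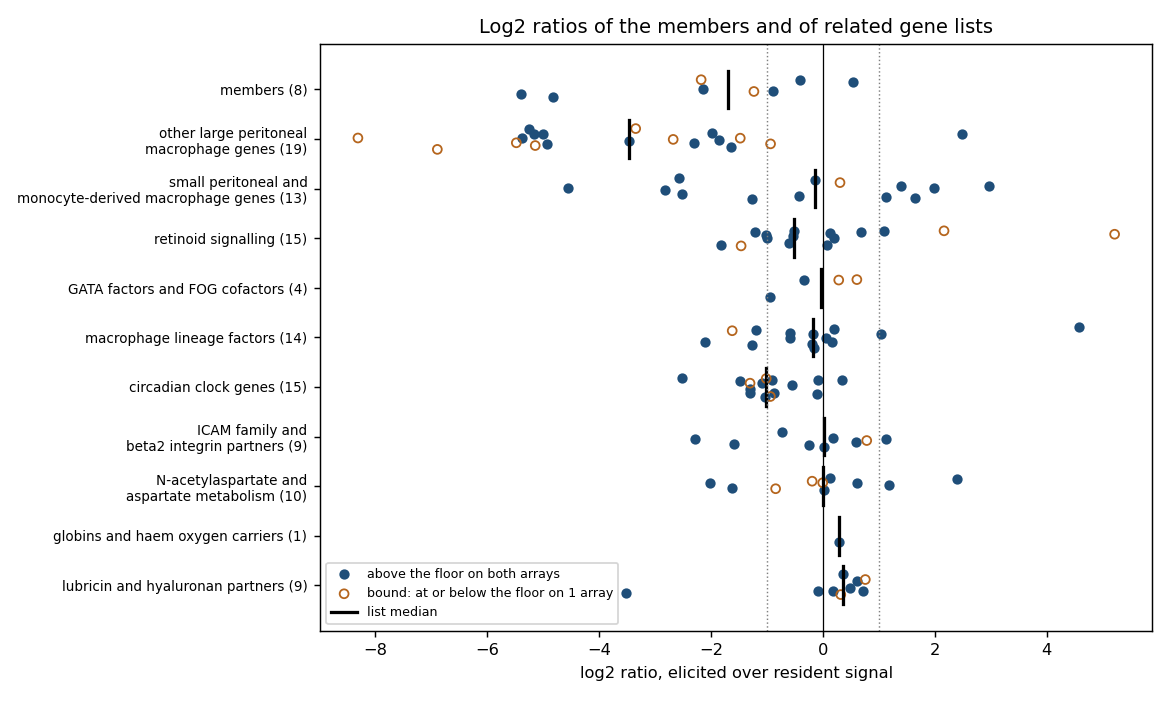
Log2 ratio (elicited over resident) of each gene above the floor on at least 1 array, for the members and 10 related lists, with the number of genes in brackets. Filled points were above the floor on both arrays, open points are bounds, and black bars are list medians, which lie at -3.45 for the other large peritoneal macrophage genes and at -1.01 for the circadian clock genes.

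Genes of small peritoneal macrophages and monocyte-derived macrophages split. Of 13 measured genes, 5 passed 2-fold downwards, 5 passed it upwards and 3 stayed within it (median log2 ratio -0.14). Among all 11560 genes, 11.8% passed it downwards and 8.04% upwards. Higher on the elicited array were the folate receptor gene Folr2 (7.80-fold), the mannose receptor gene Mrc1 (3.96-fold), Chil3 (3.14-fold), the lectin gene Clec10a (2.62-fold) and the CD11c gene Itgax (2.17-fold). Lower were Plac8 (23.4-fold), Ms4a4c (7.06-fold), Retnla (5.95-fold), Irf4, a factor of small peritoneal macrophages (5.71-fold), and the fibronectin gene Fn1 (2.41-fold). The chemokine receptor gene Ccr2 had 664 on the elicited and 896 on the resident array, and its 4 probe sets lay on both sides of 0. Cd226 and Lyve1 passed the floor on neither array.

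Genes of retinoid signalling, among them receptors, enzymes, coregulators and retinoic acid targets, also had no common direction. Of 15 measured genes, 4 passed 2-fold downwards, 3 passed it upwards and 8 stayed within it (median log2 ratio -0.52). The shares over all 11560 genes were 11.8% downwards and 8.04% upwards. Among the receptors, Rara was 2.03-fold lower from dim signals (82.5 on the elicited and 168 on the resident array). Rarg (log2 ratio -0.52), Rxra (-0.53) and Rxrb (-0.60) were within 2-fold, and Rxrg was not above the floor. Of the enzymes that make retinoic acid, Aldh1a1 was at least 4.48-fold higher (368 on the elicited array, below the floor on the resident one). Aldh1a2, known as an enzyme of peritoneal stroma and mesothelium, had 333 on the elicited and 663 on the resident array. Its log2 ratio of -0.99 was just short of the threshold. The summed mesothelial and fibroblast markers ran the other way, with 16859 on the elicited and 869 on the resident array. Which cells gave the Aldh1a2 signal was not tested. Stra6l, a retinol transporter gene, was at least 37.0-fold higher, and Dhrs3, a retinaldehyde reductase gene induced by retinoic acid, was 2.12-fold higher. The nuclear receptor coregulator genes Nrip1 and Ncoa1 were 3.54-fold and 2.30-fold lower, and Rdh12 was at least 2.75-fold lower. The transglutaminase gene Tgm2, a classical retinoic acid target, had 5022 on the elicited and 4802 on the resident array. The retinoic acid hydroxylase genes Cyp26a1 and Cyp26b1 passed the floor on neither array.

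The other GATA factors and their cofactors were near or below the floor. Of 7 GATA and FOG genes, 4 were above the floor on an array (Gata2, Gata4, Zfpm1 and Zfpm2). All had at most 202 and none passed 2-fold, although the ratios of Gata4 and Zfpm2 are bounds and could be larger. Across all 11560 genes, 11.8% passed it downwards and 8.04% upwards. Gata2 had 105 on the elicited and 202 on the resident array (log2 ratio -0.94), and Gata4 had 100.0 on the elicited array and was just below the floor on the resident one. Zfpm2 was at least 1.52-fold higher and Zfpm1 had a log2 ratio of -0.34.

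Broader macrophage factors had no common direction. Of 14 measured genes, 8 stayed within 2-fold, 4 passed it downwards and 2 upwards (median log2 ratio -0.18). Of all 11560 genes, 9261 stayed within 2-fold, 11.8% passed it downwards and 8.04% upwards. The lineage factor gene Spi1, which encodes PU.1, had 4269 on the elicited and 4109 on the resident array, and Cebpa had 6158 on the elicited and 5521 on the resident array. Klf2 was 4.31-fold, Tfec 2.40-fold, Runx1 2.28-fold and Spic at least 3.07-fold lower. Runx1 had 6 probe sets from -1.80 to 0.35. Pparg was 23.7-fold higher (2030.2 on the elicited array and 85.5, at the edge of the floor, on the resident array) and Nr1h3, which encodes LXR alpha, 2.04-fold higher, followed by Myc (log2 ratio 0.20). Maf, a factor that limits macrophage self-renewal in mice, was at -0.17 in log2 ratio (6 probe sets, from -1.25 to 0.78).

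Circadian clock genes, the system in which Bhlhe40 and Bhlhe41 act as repressors at E-boxes, passed 2-fold downwards in 8 of 15 measured genes and upwards in none (median log2 ratio -1.01). Over all 11560 genes, 11.8% passed it downwards and 8.04% upwards. The period gene Per3 had 146 on the elicited and 836 on the resident array (5.72-fold lower), and all 5 of its probe sets above the floor were lower by at least 1.02 on the log2 scale. Dbp, an output factor of the clock, was 2.78-fold lower. Rora (2.46-fold), Per2 (at least 2.46-fold), Clock (2.46-fold), Nr1d2 (2.12-fold), Per1 (2.05-fold) and Nr1d1 (at least 2.02-fold) were the others. Cry1 had the highest ratio (log2 ratio 0.33), followed by the kinase genes Csnk1d (-0.08) and Csnk1e (-0.10). Several clock genes lay near the threshold, and 3 of 15 passed it with scaling to equal medians and 4 with quantile normalization. The sources used here do not give the hour of collection.

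Partners of the remaining members differed in both directions. Beside them stand the 11.8% of all genes that passed 2-fold downwards and the 8.04% that passed it upwards. Of 9 measured ICAM and beta2 integrin genes, Icam1 was 4.84-fold lower (851 on the elicited and 4121 on the resident array) and Itgam, the CD11b gene, 2.99-fold lower, while Itgax was 2.17-fold higher. Itgal (log2 ratio -0.72), Icam4 (0.78, a bound) and Ezr (0.59) were within 2-fold. Itgb2, the shared beta chain gene, had 25211 on the elicited and 24867 on the resident array. Of 10 measured genes of N-acetylaspartate and aspartate metabolism, Nat8l, which makes the substrate of Aspa, was 4.07-fold lower (212 on the elicited and 862 on the resident array). Acss2, which activates the acetate that Aspa releases, was 3.07-fold lower. Asns (5.27-fold) and Adssl1 (2.27-fold), of asparagine and adenine nucleotide synthesis, were higher, while Got2 (log2 ratio 0.62) and Acy1 (-0.84, a bound) were within 2-fold. Of 9 measured partners of lubricin and hyaluronan, Tlr2, a receptor to which lubricin can bind, was 11.5-fold lower, while Cd44 and Tlr4 had log2 ratios of 0.35 and 0.48. Stab2 (0.76, a bound), Hyal2 (0.71), Hmmr (0.60), Hapln3 (0.18) and Has1 (-0.09) were likewise within 2-fold. Among the globins, Hba-a2 was the 1 gene above the floor (log2 ratio 0.28), and Mb, Ngb and Cygb were not.

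The 5 genes nearest to Gata6 in log2 signal over both arrays, among 9803 above the floor on both, were Cysltr1, Akna, Tnrc6b, Stard9 and Map3k5. Cysltr1, a leukotriene receptor gene, had 399.7 on the elicited and 1747 on the resident array, a distance of 0.07. The others lay at distances from 0.11 to 0.12 and were 4.21-fold to 4.87-fold lower. With 2 values per gene, such nearness describes the arrays and nothing more.

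Markers of other cells also differed between the arrays. Their counts stand beside the 11.8% of all 11560 genes that passed 2-fold downwards and the 8.04% that passed it upwards. Of 11 measured B cell markers, 9 passed 2-fold downwards (median log2 ratio -3.51), with a summed signal of 4979 on the elicited and 25439 on the resident array. Sums here and below are of deposited signals over each whole list, with none raised to the floor. Cd22 alone gave 4078 of the elicited sum, with 2269 on the resident array, and the other 10 B cell markers summed to 900.3 on the elicited and 23169 on the resident array. The 6 measured of 8 mast cell markers and the 5 measured of 8 dendritic cell markers passed the floor on the resident array and failed it on the elicited one. Summed over all 8 genes of a list, mast cell markers had 125 on the elicited and 2576 on the resident array, and dendritic cell markers 372 on the elicited and 1786 on the resident array. Mesothelial and fibroblast markers, from cells that can themselves express Gata6, Prg4, Rarb and Aldh1a2, passed 2-fold upwards in 9 of 13 measured genes, with a summed signal of 16859 on the elicited and 869 on the resident array. The largest elicited signals on this list were those of Col1a2 (5452), Sparc (4070), Col3a1 (2555) and Dcn (1945). Among its mesothelial and keratin members, Wt1, Upk3b, Lrrn4, Krt7, Krt18 and Krt19 were below the floor on the resident array, where Krt8 had 141. On the elicited array these genes and Krt8 ran from 89.2 (Krt19) to 555 (Krt8), and Msln was below the floor on both arrays. Of the endothelial markers, which bear on Icam2, 6 of 10 were measured, and Cdh5, Tek, Tie1 and Emcn were at or below the floor on both arrays. Vwf had 1276 on the elicited and 76.0 on the resident array (at least 15.5-fold higher), Kdr (145) and Esam (149) passed the floor in elicited cells alone, and Pecam1 was at least 3.00-fold lower. Of 11 pan-macrophage markers, all above the floor on both arrays, 7 were within 2-fold, 3 were lower and 1 was higher, with a summed signal of 188922 on the elicited and 182724 on the resident array. Of neutrophil markers 4 of 10 with a probe set were measured (summed signal 8608 on the elicited and 12629 on the resident array), and 3 of these were lower. Eosinophil markers gave 2 measured genes (Siglecf 3.15-fold higher, and Il5ra at least 1.51-fold lower, a bound). T and NK cell markers gave 4, of which Cd3d and Cd3g were at least 3.55-fold and 2.34-fold lower. The part of these cells in the ratios of the members and of the related lists, among them the small peritoneal macrophage genes, was not tested.

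**Figure D4:**
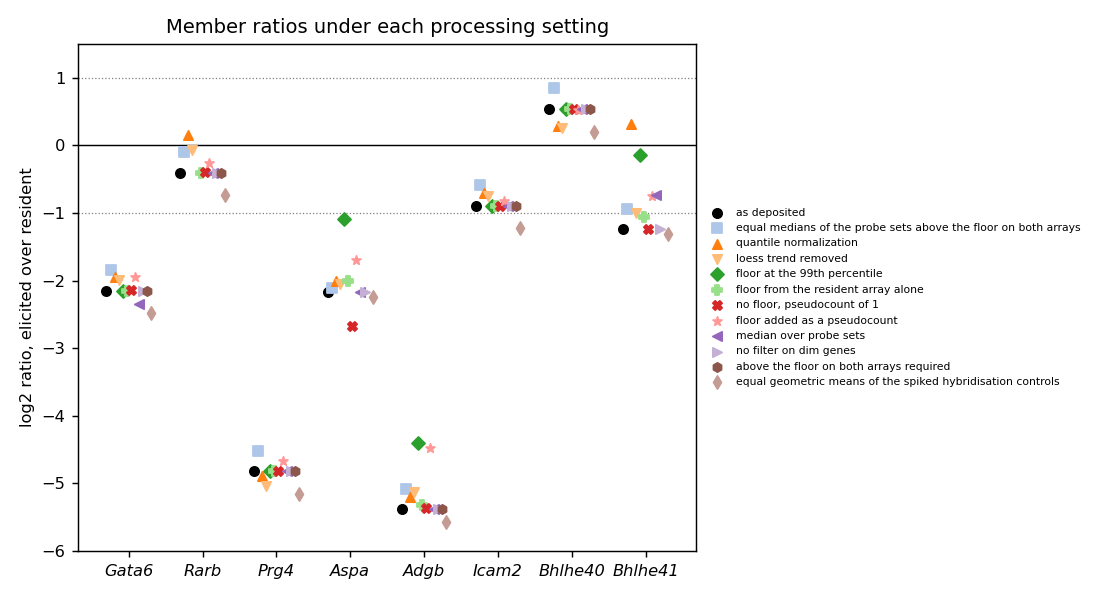
Log2 ratio (elicited over resident) of each member as deposited (black) and under 11 other settings of scaling, floor, probe set choice and filter, with dotted lines at 2-fold. Gata6, Prg4, Aspa and Adgb stay past 2-fold wherever they were measured, while Rarb and Bhlhe41 lie on both sides of 0. The Bhlhe41 value with quantile normalization comes from its other probe set.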

How the data were processed

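RNA from 1 elicited and 1 resident macrophage preparation was measured on Affymetrix 3' expression arrays. The deposited values are linear signal intensities for 45101 probe sets. The submitters' processing notes name MAS5 as the authors' tool (version and detection calls not given in the sources used here). Trimmed by 2% at each end, the signals averaged 500.0 on the elicited and on the resident array. Gene names came from the platform annotation, and 34741 of 34945 single-gene probe sets took their current symbol through the gene ID (GRCm38.p6 RefSeq table). A further 932 probe sets naming several genes and 9211 naming none were left out. The probe set brightest in mean log2 signal, after raising signals to the floor, stood for a gene. Of 18193 genes, 11560 passed the floor on 1 array or both, and 9803 on both. No test was possible with 1 array per group, and the number of arrays limits the precision. Differences are described as log2 ratios of intensities against a 2-fold threshold.

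The members and lists (10 of related genes and 9 of cell type markers) were chosen with earlier results of these data known. Named genes are all members, genes of the 10 related lists past 2-fold, the 3 highest and 3 lowest of each such list, and the 5 nearest to Gata6. Other genes, among them the cell type markers, are named to describe their group and were picked with their values known. Loess used a span of 0.4, and the floor was recomputed after each rescaling. Scaling on the spiked hybridisation controls was added after the data were seen. Promoter motifs were counted in RefSeq sequences. The calculations were tested on simulated data. Python 3.11.15, numpy 2.4.6, pandas 2.3.3 and statsmodels 0.14.6 were used.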

Additional observations from a re-analysis of the deposited data

How the results depend on the processing

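No paired analysis was possible because each group has 1 array, and leaving out an array was not possible for the same reason. Over 11 alternatives, Gata6 (log2 ratio -2.48 to -1.84), Prg4 (-5.16 to -4.52) and Adgb (-5.57 to -4.41) stayed past 2-fold downwards (elicited below resident). Aspa did in the 10 that measured it (-2.67 to -1.09). Bhlhe40 stayed within 2-fold. Icam2 ranged from -1.23 to -0.59 and passed 2-fold with the spiked controls, whose elicited signal was 1.26-fold higher, in 18 of 18 probe sets. With quantile normalization Rarb was at 0.16 and Bhlhe41 at 0.31; for Bhlhe41 the brighter probe set there is the other one, and for Rarb the cause was not tested. With the floor at the 99th percentile, Adgb (-4.41), Aspa (-1.09), Bhlhe41 (-0.15) and the median of the members measured (-1.09) came closer to 0 by construction, and Rarb was no longer above the floor. A pseudocount of 1 gave -2.67 for Aspa, the floor as a pseudocount -4.47 for Adgb, and the median over probe sets -0.74 for Bhlhe41. Requiring both arrays above the floor left 3 members at least 2-fold lower, because Aspa and Bhlhe41 drop out; the other alternatives gave 4 to 6. Genes of the other lists at least 2-fold lower numbered 43 as deposited (32 to 50 over the alternatives), and those at least 2-fold higher 13 (9 to 16). The median log2 ratio of the T and NK cell markers turned from -1.07 to 0.20 where both arrays had to be above the floor, since 1 gene was left. The median of all genes shifted from -0.03 to 0.25 with equal medians, 0.16 with quantile, 0.06 with loess and -0.33 with the spiked controls. Small ratios such as that of Rarb (1.32-fold) therefore depend on the scaling. Calls nearer the threshold did too, as Icam2 passed 2-fold with the spiked controls and Bhlhe41 fell to 1.93-fold lower with equal medians. Of all genes past 2-fold, those higher in elicited cells made up 40.5% as deposited, 65.6% with equal medians, 57.97% with quantile, 49.8% with loess and 19.9% with the spiked controls. Genes past 2-fold in the lower direction numbered 1369 as deposited, 883 with equal medians and 2220.0 with the spiked controls, and in the higher direction 930, 1681 and 550.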
